A study of Rattus norvegicus with 28 samples.

Results

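A set of 95 genes, out of 26405 gene identifiers counted in rat orbitofrontal cortex, had higher RNA levels on withdrawal day 35 than on day 2 in rats that had self-administered methamphetamine (meth) and nearly level RNA in rats that had self-administered saline. The set was chosen by measured values. Levels are in CPM (counts-per-million), a gene's count scaled by the library's total of counts assigned to genes. A member had a mean of 5 CPM or more over 16 libraries, and each of its day 35 meth values lay above each of its day 2 meth values. The log2 ratio of the day 35 to the day 2 group mean was 0.15 or more in meth rats and between -0.1 and 0.1 in saline rats. The description "meth only" therefore comes from these bounds and not from a test.

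RNA was sequenced from tissue punches of Sprague Dawley rats, taken straight from the home cage on withdrawal day 2 or day 35 after meth or saline self-administration. The labels call these days short and long, and the day numbers come from the series' design text. Each of the 4 groups (day 2 saline, day 2 meth, day 35 saline and day 35 meth) held 4 libraries, and each library pooled the tissue of 2 rats, so a replicate is a pool of animals and not a single rat. Age and sex are not given in the labels used here, and the 12 samples of central amygdala were not analysed here. Gene counts per library ran from 20.3 M to 48.5 M. Depth was higher on day 35 in both drug groups, with means of 22.6 M and 37.2 M in saline and 33.6 M and 41.3 M in meth libraries (day 2 and day 35). The 4 libraries of a group share 1 sequencing index and were spread over lanes 1 to 4, so an index or preparation batch cannot be told apart from the group.

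Orbitofrontal cortex is a frontal region that tracks the current value of rewards and of the cues that predict them. Relapse to drug seeking after abstinence is known to engage it. Cue-induced craving for meth is known to grow during the weeks after drug taking stops, a process called incubation of craving, and the comparison of early with late withdrawal addresses it. The files identify genes by Ensembl identifier, and none of these (0 of 26405) could be paired with a symbol here. The functions of the members, the tissue's cell type markers and the members' sequences could therefore not be looked up. Only 2 members are printed by identifier, and the others are described by their rank in size of change or in level.

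The criteria reduced the genes in steps. The mean of 5 CPM was reached by 11012 genes, and 512 of these (4.65%) had every day 35 meth library above every day 2 meth library. A log2 ratio of 0.15 or more in meth was found for 145 of the 512. The saline window kept 95 of those and removed 36 genes with a saline ratio above it and 14 with a ratio below it. When every library was thinned to the depth of the shallowest, 98 genes met the bounds, 56 of the 95 members among them. The same bounds with the sign turned were met by 346 genes that were lower on day 35 in meth rats only. With the drug groups exchanged, 28 genes were higher and 62 were lower on day 35 in saline rats only. No test was attached to these counts, since each comes from values that choose its genes.

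**Figure D1:**
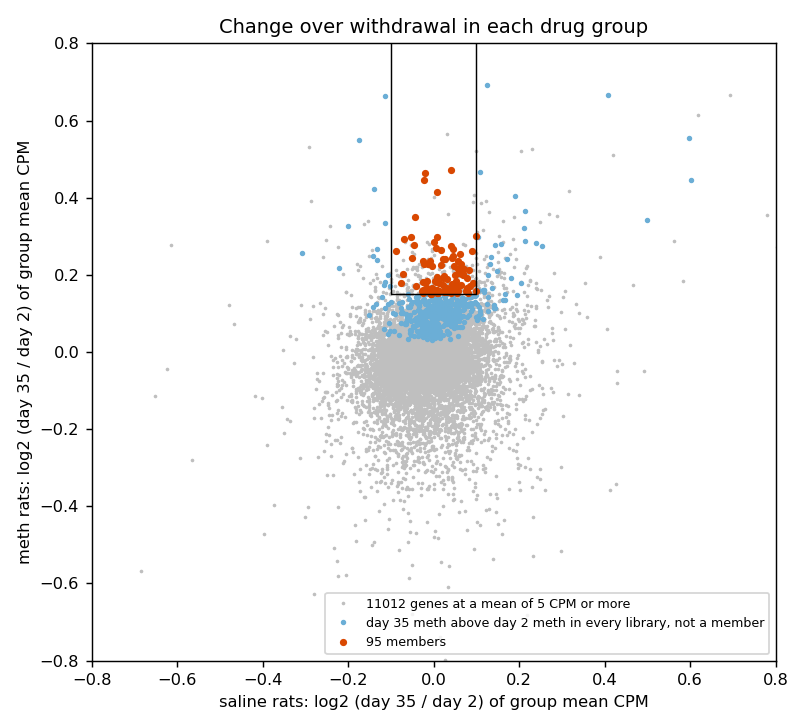
Log2 ratio of day 35 to day 2 group mean CPM in saline rats (horizontal) and in meth rats (vertical), 1 point per gene; genes beyond the axes are not drawn. The lines mark the bounds, the 95 members lie inside them, and most genes with separated meth libraries (blue) sit below the meth bound of 0.15.

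The meth change of the members was small. The ratio of day 35 to day 2 mean CPM ran from 1.11-fold to 1.39-fold, with a median of 1.14-fold and quartiles of 1.12 and 1.18. It exceeded 1.2-fold in 15 members and 1.3-fold in 4. The lowest day 35 meth library lay above the highest day 2 meth library by a median of 1.04-fold, and in the closest member by 1.0004-fold. At the bound of 0.15, the 2 members just inside had log2 ratios of 0.15003 and 0.15083, and the 2 genes just outside had 0.14991 and 0.14980. The set thus has no gap at its lower edge. In the saline window, the members nearest the bounds had log2 ratios of 0.0998 and -0.0874, and the nearest genes outside had 0.104 and -0.102.

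Members spanned the range of expression. Mean levels ran from 5.42 to 1280 CPM with a median of 39.6 CPM, against 33.8 CPM over the 11012 genes at the same floor. There were 12 members under 10 CPM, 53 from 10 to under 100 CPM, 28 above that and the 2 most abundant at 1172 and 1280 CPM. These 4 classes held 12.6, 55.8, 29.5 and 2.1% of members, against 14.3, 66.7, 18.2 and 0.84% of the 11012 genes. All 95 had at least 107 counts in every library, and all 95 passed the filter on low counts of the fit, as their mean level requires. Summed over members, the 5 most abundant held 37.9% of the CPM.

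ENSRNOG00000007765 had the largest meth change of the set. Its day 2 meth libraries held 9.81, 9.12, 8.69 and 8.56 CPM (replicates 1 to 4) and its day 35 meth libraries 12.0, 12.3, 13.1 and 12.8 CPM (replicates 5 to 8). The saline libraries held 13.5, 12.4, 9.77 and 9.26 CPM on day 2 (replicates 13 to 16) and 12.3, 9.70, 12.7 and 11.4 CPM on day 35 (replicates 9 to 12). The 4 day 2 meth values were thus the narrow low group, while day 2 saline reached from within their range to above all other libraries. Group means were 9.05 ± 0.564 CPM (SD, n = 4) in day 2 meth, 12.5 ± 0.516 in day 35 meth, 11.2 ± 2.03 in day 2 saline and 11.55 ± 1.34 in day 35 saline. The fitted log2 ratio of day 35 to day 2 was 0.48 (SE 0.099) in meth and 0.06 (SE 0.10) in saline rats.

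The 3 members next in size of change had a wider spread in day 2 meth libraries. The second held 9.57, 14.3, 13.6 and 8.48 CPM in day 2 meth and 16.8, 16.3, 15.5 and 14.8 CPM in day 35 meth libraries. For the third, the day 2 meth values were 21.1, 17.5, 23.1 and 14.1 CPM, and the day 35 meth values 26.1, 24.7, 24.0 and 28.6 CPM. In all 3 the lowest of the 16 libraries was day 2 meth replicate 4. The fourth had 6.09, 6.44, 6.03 and 4.54 CPM in day 2 meth and 8.33, 7.06, 7.73 and 7.68 CPM in day 35 meth libraries. The coefficient of variation between libraries had a median of 9.76% in day 2 meth over the 12 members with the largest change, against 4.41% over all 95. These 12 were low to moderate in level, from 6.16 to 51.4 CPM, and changed by 1.21-fold to 1.39-fold.

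**Figure D2:**
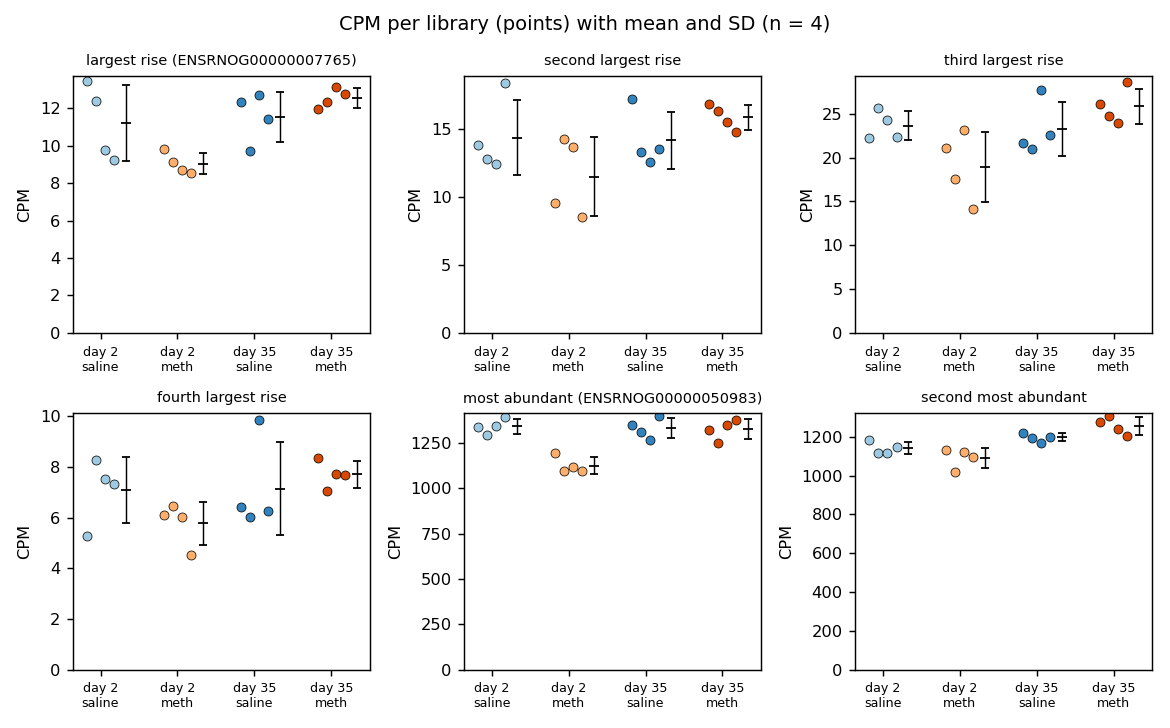
CPM in each of the 16 libraries (points, in replicate order within a group) for the 4 members with the largest meth change and the 2 most abundant members, with group mean and SD (n = 4); each vertical axis starts at 0. Day 2 meth sits lowest in every panel, and the saline groups overlap the day 35 meth group except on day 2 in the second most abundant member.

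The 8 most abundant members, from 300.4 to 1280 CPM, changed by 1.12-fold to 1.18-fold. The most abundant was ENSRNOG00000050983, with 1191, 1092, 1117 and 1095 CPM in day 2 meth and 1322, 1247, 1348 and 1377 CPM in day 35 meth libraries. Day 2 saline held 1334, 1294, 1340 and 1392 CPM, and day 35 saline 1349, 1311, 1267 and 1398 CPM. All 4 day 2 meth libraries lay below the other 12, which overlapped one another. Each of these values rests on at least 27115 counts. The second most abundant member followed another order, with means of 1092 ± 51.5 CPM in day 2 meth, 1141 ± 30.6 in day 2 saline, 1197 ± 20.4 in day 35 saline and 1257 ± 45.2 in day 35 meth (SD, n = 4 each). Its saline ratio, 0.07 on the log2 scale, was inside the window but in the direction of the meth change.

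Across the set, day 2 meth was the lowest of the 4 group means in 91 members and day 35 meth the highest in 83, and both held in 79. With day 2 meth set to 0 and day 35 meth to 1, the day 2 saline mean lay at a median of 0.55 (quartiles 0.37 and 0.72) and the day 35 saline mean at 0.66 (0.52 and 0.82). The saline means thus sat inside the meth range and nearer its upper end in most members, with 55 of 95 past the midpoint on day 2 and 73 of 95 on day 35. In 12 members a saline group had the highest mean. In the 4 members where day 2 meth was not the lowest, day 2 saline was. The bounds on meth and saline ratios favour such orders.

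**Figure D3:**
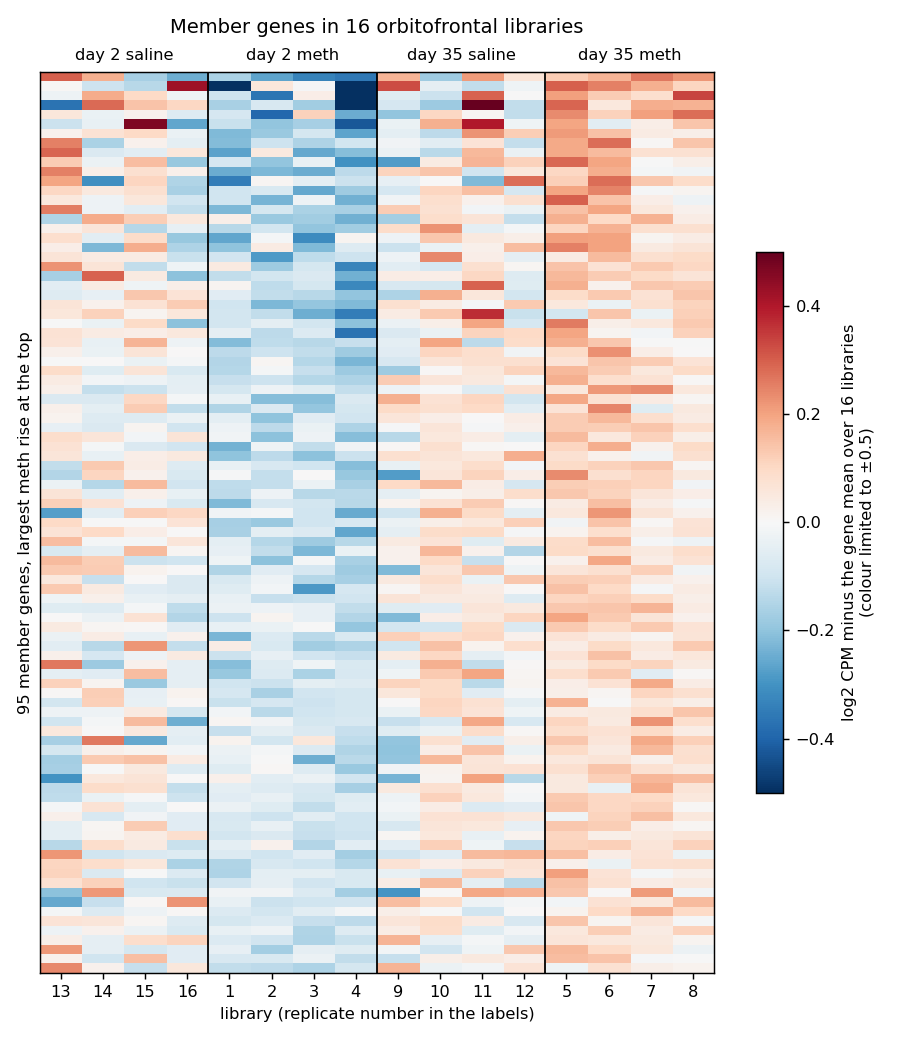
Log2 CPM of each of the 95 members (rows, largest meth change at the top) in each of the 16 libraries (columns), minus the member's mean over the libraries, with colour limited to ±0.5. By the choice of members, every day 35 meth library lies above every day 2 meth library in each row. Some day 35 meth libraries still lie below the row's mean, and some day 2 meth libraries above it. Single saline libraries depart in both directions.

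Summed over the 95 members, the level was 10137 ± 203 CPM in day 2 meth, 11054 ± 180 in day 2 saline, 11173 ± 184 in day 35 saline and 11654 ± 200 in day 35 meth (SD, n = 4 each). In punches of whole tissue, fewer cells of a type and less RNA per cell cannot be told apart. Libraries contributed unequally. Over the 95 members, the median departure from the member's own mean was -0.09, -0.08, -0.10 and -0.14 on the log2 scale in day 2 meth replicates 1 to 4. It was 0.12, 0.12, 0.07 and 0.05 in day 35 meth replicates 5 to 8. Day 2 meth replicate 4 was the lowest of all 16 libraries for 34 members, against 11, 14 and 19 for replicates 2, 1 and 3. Day 35 meth replicate 5 was the highest of all 16 for 22 members and replicate 8 for 3. Saline libraries ran from -0.05 (day 2 replicate 16) to 0.06 (day 35 replicate 10). Replicates 4, 8 and 16, the lane 4 libraries of their groups, had the lowest median of their group; in day 35 saline it was replicate 9, from lane 1. The part of the lane in these departures was not tested.

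**Figure D4:**
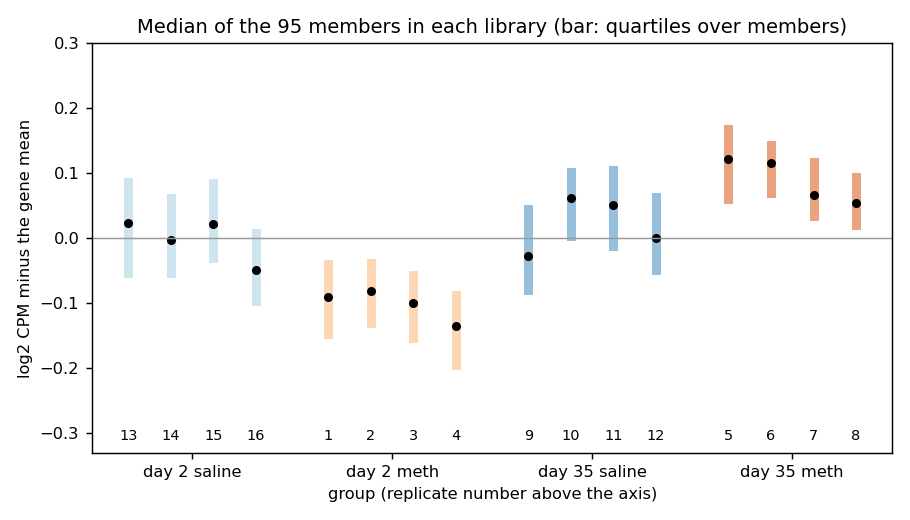
Median over the 95 members of log2 CPM minus the member's mean (points) with quartiles over members (bars, not an error of the median), for each library by group. The 4 day 2 meth medians lie between -0.14 and -0.08 and the 4 day 35 meth medians between 0.05 and 0.12; day 35 saline replicate 10 reaches the day 35 meth range.

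Members also varied between pools within a group. The median coefficient of variation was 6.36% in day 2 saline and 6.19% in day 35 saline, against 5.45% and 4.88% over the 11012 genes. In meth rats it was 4.41% on day 2 and 4.51% on day 35, against 4.47% and 4.10%. Requiring separated meth libraries favours a low spread in meth, so only the saline values were free of that requirement. After removal of group means, the correlation between pairs of members over the 8 saline libraries had a median of 0.12, with 58.5% of pairs positive, against 0.02 and 51.6% over pairs of the 11012 genes. Over the 8 meth libraries the median was 0.13 against 0.02. The points share library and depth, and these values are a description.

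The rule left 1 contrast of the design unbounded, the meth effect averaged over both days, and this was tested with edgeR's quasi-likelihood fit to all 16 libraries and 15413 genes. The p-values weigh this contrast against the spread between pools of rats within a group. An index or preparation batch shared by a whole group is not part of that spread. No member passed (0 of 95), with p adjusted by Benjamini and Hochberg's method over every gene tested and a threshold of 0.05, against 0.013% of all genes. The unadjusted p was under 0.05 in 12 members, 10 lower and 2 higher in meth, against 6.89% of all genes. Requiring separated meth libraries favours a low spread in meth, and that spread enters these p-values. The p-values of the members are therefore not free of the rule, and nothing is read from this count. limma-voom called 0 members. DESeq2 called 2, both lower in meth, among 24 of the 11671 genes to which it gave an adjusted p. The fitted log2 ratio of meth to saline was below 0 in 68 of 95 members, against 49.7% of genes tested, with a median of -0.022 (range -0.17 to 0.09, median SE 0.041). Without day 2 meth replicate 4 that median was -0.011. From group mean CPM, 73.7% of members had an averaged ratio below 0, against 54.2% of the 11012 genes at the 5 CPM floor. Within lanes 1 to 4, each holding 1 library of every group, the median over members was 0.0024, -0.024, -0.059 and -0.023. In lane 1 the ratio was below 0 in 46 of 95 members, against 59, 71 and 59 in lanes 2, 3 and 4. The lean toward lower values thus did not hold in lane 1. The lane values are ratios of CPM between single libraries and not fitted ratios.

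Averaged over days, ENSRNOG00000050983 had the smallest p of the members, with a log2 ratio of -0.13 (SE 0.028, edgeR adjusted p = 0.29). Its adjusted p over 22 alternatives ran from 0.018 (DESeq2) to 0.49. The tenth member in order of level was next, at -0.12 (SE 0.028, edgeR adjusted p = 0.32; DESeq2 0.038). That member held 247, 259, 246 and 263 CPM in day 2 meth libraries and 276 to 321 CPM in the 12 others, so its 4 lowest libraries were those of day 2 meth. ENSRNOG00000007765 had a log2 ratio of -0.09 (SE 0.071, edgeR adjusted p = 0.84).

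The 2 days are given separately as a description, since the rule favours low day 2 meth and high day 35 meth values and both comparisons share libraries with it. On day 2 the fitted log2 ratio of meth to saline was below 0 in 90 of 95 members, with a median of -0.11 (range -0.32 to 0.02). The 4 meth libraries lay below all 4 saline libraries in 22 members, against 3.64% of the 11012 genes. edgeR called 1 member lower in meth, against 0.026% of genes tested, and 37 members had an unadjusted p under 0.05, against 10.5% of genes. It was ENSRNOG00000050983 (log2 ratio -0.25, SE 0.040, edgeR adjusted p = 0.013), one of those 22. That call was lost without day 2 meth replicate 2 or 4, where the smallest edgeR adjusted p of any member was 0.061 and 0.054. In both of those fits 0 genes were called lower in all. Without day 2 saline replicate 14 or 16, edgeR called 2 members. Genes called lower were then 9 and 7 in all, against 4 with every library. limma-voom called 1 member on day 2, among 15 of 15413 genes. DESeq2 called 3 of the 77 members to which it gave an adjusted p, all lower, among 43 of 8487 genes called lower. On day 35 the ratio was above 0 in 87 of 95 members, with a median of 0.07 (range -0.08 to 0.26). The 4 meth libraries lay above all 4 saline libraries in 2 members, against 1.56% of genes. edgeR called 0 members on day 35, against 0% of all genes, and 13 had an unadjusted p under 0.05, against 5.85%. limma-voom called 0 members and 0 genes, and DESeq2 0 members among 5 of 14856 genes.

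Counts of members outside all saline libraries are a description too, since the rule favours low day 2 meth and high day 35 meth values. Day 2 meth lay below all 8 saline libraries in 13 members, against 0.79% of the 11012 genes. In these the median log2 ratio of meth to saline was -0.15 on day 2 and 0.01 on day 35. Day 35 meth lay above all 8 saline libraries in 2 members, against 0.136% of genes. One of them, at 82.9 CPM, had 90.4, 90.2, 91.0 and 87.7 CPM in day 35 meth and 77.4 to 86.2 CPM in saline libraries. Its day 2 meth values, 81.3, 75.5, 81.0 and 74.3 CPM, overlapped the saline values. The other, at 12.5 CPM, had 14.6, 13.4, 14.3 and 15.1 CPM in day 35 meth and 10.8 to 13.3 CPM in saline libraries. Its day 2 meth values were 11.7, 9.43, 13.43 and 10.4 CPM. That of replicate 3 also lay above all 8 saline libraries, whose highest was 13.30 CPM. The larger of the 2 departures from saline was on day 2 in 68 members and on day 35 in 27.

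**Figure D5:**
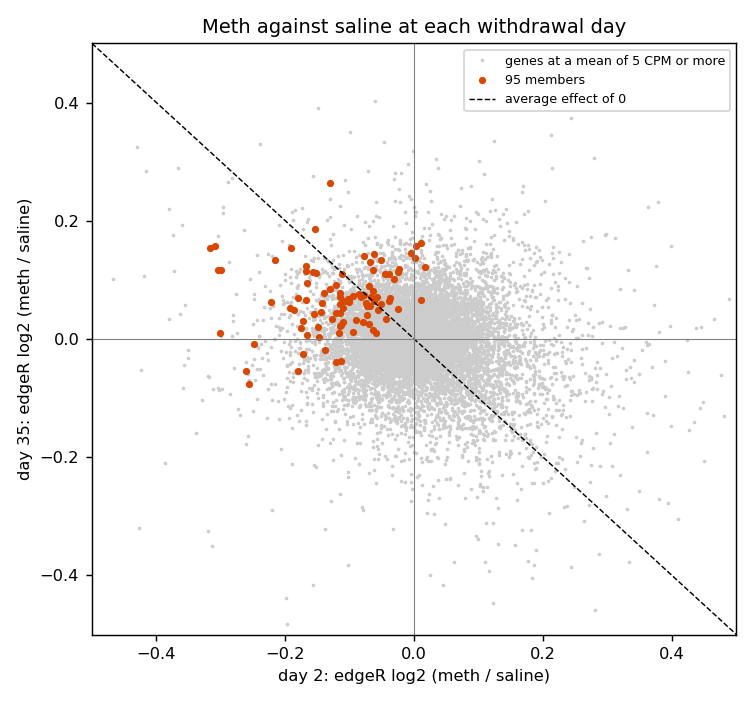
Fitted log2 ratio of meth to saline on day 2 (horizontal) and day 35 (vertical) for the 95 members and for the other genes at a mean of 5 CPM or more; genes beyond the axes are not drawn. Members spread on both sides of the dashed line, where the 2 effects average to 0, with 68 below it and 27 above.

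The contrasts that chose the members were described in the same fit, and nothing is supported with them. Between the days in meth rats, edgeR called 39 of 95 members higher, against 0.448% of all genes called higher. These 39 are 41.1% of the members and 56.5% of the 69 genes called higher. The called members had a median level of 90.3 CPM and the 56 others, not called, 24.2 CPM. Of the 30 called genes outside the set, 21 had a meth ratio under the bound and 8 a saline ratio outside the window. None of the 12 members under 10 CPM was called. Leaving out day 2 meth replicate 1, 2, 3 or 4 lowered the count of 39 to 27, 23, 24 or 16. Genes called higher in all, 69 with every library, fell alongside to 54, 33, 32 or 23. Omission of day 35 meth replicate 5, 6, 7 or 8 lowered the members called to 16, 19, 24 or 28. All genes called higher then fell to 21, 28, 42 or 47.

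In saline rats, edgeR called 0 of 95 members between the days, against 0% of all genes. The fitted log2 ratio was above 0 in 75 members, with a median of 0.03 (range -0.07 to 0.11), and 6 had an unadjusted p under 0.05, against 8.68% of genes. limma-voom called 0 members and 0 genes. DESeq2 called 0 of the 71 members to which it gave an adjusted p, and 37 of 7690 genes. The saline days overlapped in all 95 members, while 4.86% of the 11012 genes had separated saline days. The difference between the meth and the saline change passed for 0 members with edgeR, against 0.136% of all genes. Its log2 value had a median of 0.16 (range 0.05 to 0.47, median SE 0.082), the smallest edgeR adjusted p was 0.15, and 45 members had an unadjusted p under 0.05, against 9.62% of genes. For this difference limma-voom called 0 members among 9 of 15413 genes, and DESeq2 called 3 members among 72 of 14458 genes. The rule used this contrast, and nothing is read from these counts.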

How the data were processed

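The authors deposited raw counts per gene, 1 file per library, in 26405 Ensembl identifiers and 5 summary rows, without normalization. Per the labels' protocols, poly(A) libraries were made with a TruSeq v2 kit. TopHat, HTSeq, limma and the rn4 build are named in the submitters' processing notes; no source used here gives their versions, the annotation or the strand setting. Summary rows, 31.1 to 32.6% of each file's reads, were left out. Reads with several alignments are among them, so near-identical gene copies are understated.

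The members follow the stated bounds on CPM from gene totals. The members and gene lists were chosen with earlier results of these data known. The named-gene rule (12 largest changes, 8 most abundant, 6 smallest p in the average effect, edges, list members, 3 most alike) and 31 gene lists need symbols, so the lists were not run and 2 identifiers are printed.

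Tests used edgeR 4.0.16 (filterByExpr, TMM, 1 model of 4 group means, glmQLFit robust; R 4.3.3) with Benjamini-Hochberg adjustment over 15413 genes. SEs are the log2 ratio divided by the square root of F. Alternatives were other scalings and filters, limma-voom 3.58.1, a lane block, DESeq2 1.42.0, other bounds and leaving out each library. In data simulated for the average meth effect (15396 genes), edgeR recovered 86% of 100 genes set to a 1.2-fold change and 96% of 100 set to 1.5-fold, with 6 false calls. The same change was set on both days, with a median fitted log2 size of 0.267 at 1.2-fold. The members' average effects were smaller, from -0.17 to 0.09. Recovery of effects of that size was not tested. None of 24 within-group library pairs was identical, and each pair differed by more than sampling noise (chi-square over degrees of freedom 5.19 to 17.0). Libraries sharing a lane, per the labels, had deviations from group means correlated by 0.041 on average (24 pairs, range -0.39 to 0.36), against -0.014 for other pairs.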

Additional observations from a re-analysis of the deposited data

Results flagged for a closer look

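In 2 of 20 sets of 4 libraries, 1 value stood apart from the other 3, which chance alone does in about 1 of 20. Both concern depth: replicate 13 of day 2 saline held 20.3 M counts in genes, and replicate 1 of day 2 meth 25.0 M, each the fewest of its group. The summed level of the members, their median departure and the 2 printed genes gave no such set. Over the 95 members taken singly, 23 of 380 sets (6.05%) had a library apart, 5 of them for day 2 meth replicate 2 and 4 for day 35 saline replicate 11.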

How the results depend on the processing

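The number of genes meeting the bounds was 95. It was 228 and 41 with a meth bound of 0.1 and 0.2, and 63 with a saline window of 0.05; these follow from looser or stricter bounds. Leaving out 1 library gave 88 to 199 genes, with 199 without day 2 meth replicate 1 and 162 without day 35 meth replicate 8, and kept 77 to 93 of the 95. TMM-scaled CPM gave 133 genes with 88 of the members, and median-ratio scaling 129 with 90. Thinning all libraries to the shallowest (20.3 M counts), chosen after seeing the data, gave 98 genes but only 56 of the members; the 39 lost had a median of 21.4 CPM and the 56 kept 88.7 CPM. For the average meth effect, members called were 2 with DESeq2, among 24 genes. They were 0 under the other 21 alternatives, which called 1 to 4 genes each. Between the days in meth rats the count was 16 to 44 with 1 library left out and 39 to 54 under other settings. All genes called higher ran from 21 to 91 and from 70 to 212 in the same fits. The median log2 ratio of meth to saline stayed between -0.13 and -0.10 on day 2 and between 0.05 and 0.08 on day 35, and averaged over days it ran from -0.030 to -0.011. Members near 5 CPM rest on as few as 107 counts in a library, so changes of this size are imprecise in them. The groups share no replicate number, so the lane was the pairing that could be fitted. With lane as a replicate block, edgeR called 0 members for the average effect and 1 on day 2. It called 39 members between the days in meth rats. These member counts were the same without the block. Over all genes the calls were 3, 4 (lower) and 81 (higher), against 2, 4 and 69 without the block.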

Other observations

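The 3 genes outside the set whose log2 CPM followed the members' mean standardised level most closely over the 16 libraries had Pearson correlations of 0.91, 0.85 and 0.84, where the points share library and depth. They had mean levels of 63.0, 101 and 174 CPM. All 3 had separated meth libraries and a saline ratio inside the window, and each missed the set by its meth log2 ratio (0.11, 0.13 and 0.13). A further 24 genes met every bound but the mean level of 5 CPM.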
